A study of Rattus norvegicus with 18 samples.

Results

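The comparison set the oculomotor nucleus of 6-month-old rats against the spinal cord of rats of the same age, across all genes measured. It was chosen by the array titles alone: 3 arrays of the oculomotor nucleus and 3 of the spinal cord at 6 months, 6 of the 18 arrays of the series. The other 12 arrays hold the same tissues at 18 and 30 months, 3 arrays per tissue and age. Each array was an Affymetrix RA230 chip hybridised with RNA pooled from 4 animals, so that p-values measure the spread between pooled samples and not between animals. The labels give 3 arrays per group, although the submitters' design text speaks of 4. The strain F344BN is named in the label of some samples only, and sex, the level of the cord taken, the borders of the dissection and whether both tissues of a pool came from the same animals are not given in the sources used here. No animal was treated, and no transgene or deletion is named. The label fields name the dyes Cy3 and Cy5, whereas the submitters' design text describes biotinylated cRNA and a streptavidin stain, and the values were read as signals of 1 colour. They are on a linear scale, and a signal under 66.4, the floor used here, counts as not distinguishable from background.

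The oculomotor nucleus is a small cluster of cholinergic motor neurons under the aqueduct of the midbrain. It drives most muscles that turn the eye and the muscle that lifts the upper lid, and its neighbours include the Edinger-Westphal nucleus, the serotonin cells of the dorsal raphe, the red nucleus and the dopamine cells of the ventral tegmentum. In the spinal cord lie the motor pools for limbs and trunk, the dorsal horn with its sensory afferents, and long myelinated tracts. Hox genes, a family of transcription factors, mark the hindbrain and cord along the body axis and are silent in the midbrain.

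On the 6 arrays the median signal lay between 253 and 256 in the oculomotor nucleus and between 260.0 and 265 on the cord arrays. The oculomotor arrays were closer to each other, with pairwise correlations of log2 signal between 0.984 and 0.985, than the cord arrays, with 0.959 to 0.965, and pairs across the tissues gave 0.913 to 0.923. No 2 arrays held identical values. After subtraction of each group's mean, the leading principal component set cord array 1 apart, together with 3 arrays of the later ages, and skeletal muscle transcripts were higher on cord arrays 1 and 2 than on cord array 3. The 3'/5' ratio of the hexokinase control, a sign of RNA integrity and labelling, was 1.57 to 1.64 on the oculomotor arrays and 1.93 to 2.12 on the cord arrays, without overlap, while the ranges for the GAPDH control were 0.991 to 1.02 and 0.988 to 1.30. The beta-actin ratio ran the other way, with 1.25 to 1.36 on the oculomotor arrays and 0.980 to 1.26 on the cord arrays. The part of RNA quality in the results was not tested.

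Of 9482 probe sets bright enough to be tested, 2478 (26.1%) differed between the tissues at an adjusted p under 0.05 (limma, 2-sided, Benjamini-Hochberg over all probe sets tested), and these are referred to as called. Of them 1203 were higher in the oculomotor nucleus, for 933 named genes, and 1275 lower, for 1027 named genes. The median log2 difference over all probe sets was 0.0099. Most differences were modest: 149 of the higher and 204 of the lower probe sets differed by more than 2-fold, 11 and 24 by more than 4-fold, and 6 and 6 by more than 8-fold. The 3 oculomotor arrays did not overlap with the 3 cord arrays in 3856 probe sets (40.7%). Counted by gene, with the brightest probe set standing for each of 6958 genes, 854 (12.3%) were called higher and 984 (14.1%) lower, and the counts of the gene groups below are to be read against these 2 shares. The median over these genes was 0.0067. Without cord array 1 the count of called probe sets was 2346, without the 4 arrays that stood apart 2872, and without cord arrays 1 and 2 it was 1621.

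**Figure D1:**
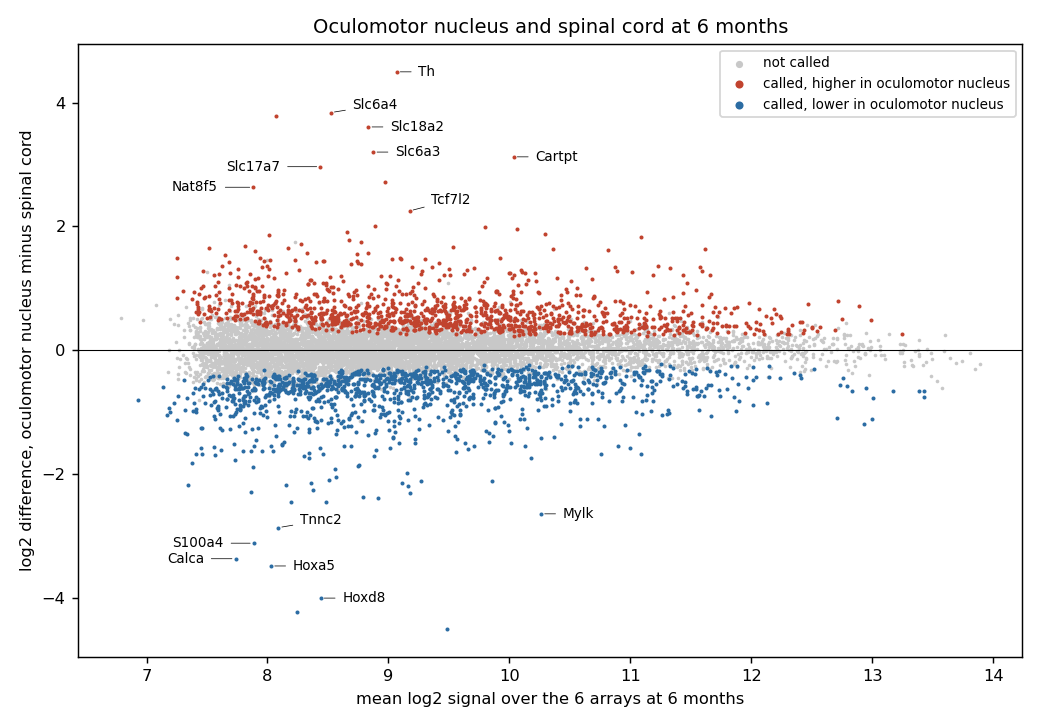
Difference between the tissues against signal at 6 months. The horizontal axis is the mean log2 signal over the 6 arrays and the vertical axis the log2 difference, oculomotor nucleus minus spinal cord, for 9482 probe sets. Red points are the 1203 probe sets called higher in the oculomotor nucleus, blue points the 1275 called lower, and grey points were not called. Th stands highest at 4.50, and of the labelled genes Hoxd8 lowest at -4.00.

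Among named genes, the 4 largest differences in favour of the oculomotor nucleus belonged to Th, Slc6a4, Slc18a2 and Slc6a3, genes of dopamine and serotonin neurons. Th, tyrosine hydroxylase, the rate-limiting enzyme of catecholamine synthesis, had signals of 2346, 2450 and 2893 on the oculomotor arrays, against 91.2, 138 and 115 on the cord arrays. Every oculomotor array exceeded every cord array, by a log2 difference of 4.50 (SE 0.22, limma adjusted p = 4.37e-11), a 22.6-fold difference. Slc6a3, the dopamine transporter, had 1381, 1393 and 1506 on the oculomotor arrays, against 174, 154 and 139 on the cord arrays, a log2 difference of 3.20 (SE 0.13, limma adjusted p = 2.63e-12). Slc18a2, the vesicular monoamine transporter that loads dopamine, noradrenaline and serotonin into vesicles, was called by 2 probe sets, with log2 differences of 3.61 and 2.72. The better separated of them read 1630, 1528 and 1628 on the oculomotor arrays, against 117, 154 and 124 on the cord arrays. Ddc, the decarboxylase that makes both dopamine and serotonin, was higher by 1.96 on the log2 scale, and Gch1, which makes the cofactor of tyrosine and tryptophan hydroxylase, by 1.66. Drd2, the dopamine autoreceptor, had 428, 451 and 420.2 on the oculomotor arrays, against 346, 334 and 406 on the cord arrays, a log2 difference of 0.26 that was not called (limma adjusted p = 0.173). Of the 14 dopamine neuron markers tested, out of 20 on the array, 9 were higher and 1 lower, with a median log2 difference of 1.15. The exception was Sncg, gamma-synuclein, also made by motor and sensory neurons, with 1220, 1184 and 966 on the oculomotor arrays, against 3079, 3190 and 3573 on the cord arrays. In tissue pieces such as these, fewer cells of a type and less RNA per cell cannot be told apart.

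Of 10 serotonin neuron markers on the array 6 were tested, and all 6 were higher in the oculomotor nucleus, with a median log2 difference of 1.71. Of these, 2, Slc18a2 and Ddc, are also dopamine markers. Tph2, another member of the list, is not on the array. The 6-month cord signals of Slc6a4 and of the Slc18a2 probe set shown above all lay under the filter level (log2 of 7.46). Those of Fev lay on both sides of it. This favours a higher call among the genes that passed the filter, so that the count is no clean test of the direction. Slc6a4, the serotonin transporter, had 1540, 1268 and 1385 on the oculomotor arrays, against 89.1, 130 and 79.5 on the cord arrays, a log2 difference of 3.84 (SE 0.16, limma adjusted p = 3.02e-12). Fev, the transcription factor that sets serotonin identity, had 437, 434 and 419 on the oculomotor arrays, against 164, 195 and 122 on the cord arrays, a log2 difference of 1.45 (SE 0.18, limma adjusted p = 9.16e-06). Maob, the monoamine oxidase of serotonin neurons and astrocytes, was higher by 0.89 on the log2 scale, and Gata2, a transcription factor of the serotonin lineage, by 0.63. Gata2 missed the threshold without oculomotor array 2 (limma adjusted p = 0.114), without cord array 1 (0.0893) and without cord array 3 (0.0916).

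**Figure D2:**
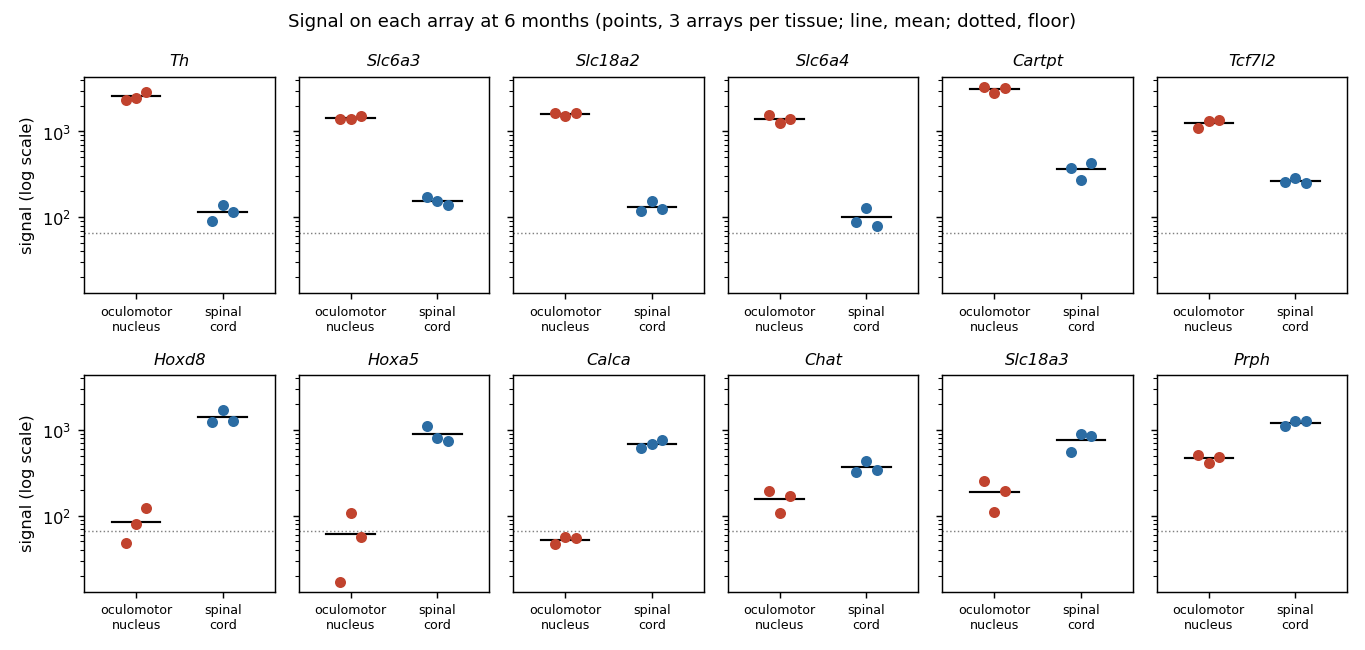
Signal on each 6-month array for 12 genes, on a log scale. Red points are the 3 oculomotor arrays, blue points the 3 cord arrays, black lines the means, and the dotted line the floor of 66.4. The monoamine genes Th, Slc6a3, Slc18a2 and Slc6a4, the neuropeptide gene Cartpt and the transcription factor gene Tcf7l2 are higher on every oculomotor array. Hoxd8, Hoxa5, Calca, Chat, Slc18a3 and Prph are lower on every oculomotor array, and all 3 oculomotor values of Calca lie under the floor.

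Cartpt, which encodes the CART neuropeptide that is abundant in the Edinger-Westphal nucleus, had 3303, 2779 and 3248 on the oculomotor arrays, against 380.1, 274 and 431 on the cord arrays, a log2 difference of 3.12 (SE 0.15, limma adjusted p = 3.56e-11). The promoter windows of Th, Slc18a2 and Cartpt are shown because these 3 of the 15 genes with the largest excess in the oculomotor nucleus carry the full palindrome TGACGTCA of the cyclic AMP response element, in capitals. The windows are 300 bases around the start of the gene, from RefSeq on build GRCr8, written 5' to 3' on the gene's strand, at chr1:207508169-207508468 (minus strand) for Th, chr1:268399771-268400070 (plus strand) for Slc18a2 and chr2:32991186-32991485 (minus strand) for Cartpt.
Th: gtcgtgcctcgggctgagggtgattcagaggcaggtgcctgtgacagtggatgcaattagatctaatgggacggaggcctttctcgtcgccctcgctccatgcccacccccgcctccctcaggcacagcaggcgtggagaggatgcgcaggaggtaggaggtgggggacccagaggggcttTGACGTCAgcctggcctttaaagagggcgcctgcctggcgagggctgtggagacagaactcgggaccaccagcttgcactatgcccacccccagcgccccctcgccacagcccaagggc
Slc18a2: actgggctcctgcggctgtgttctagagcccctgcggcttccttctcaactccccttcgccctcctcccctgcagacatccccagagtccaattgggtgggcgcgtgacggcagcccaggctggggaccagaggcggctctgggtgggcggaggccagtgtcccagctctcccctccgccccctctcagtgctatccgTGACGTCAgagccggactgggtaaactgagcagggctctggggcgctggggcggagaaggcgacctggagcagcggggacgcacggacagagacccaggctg
Cartpt: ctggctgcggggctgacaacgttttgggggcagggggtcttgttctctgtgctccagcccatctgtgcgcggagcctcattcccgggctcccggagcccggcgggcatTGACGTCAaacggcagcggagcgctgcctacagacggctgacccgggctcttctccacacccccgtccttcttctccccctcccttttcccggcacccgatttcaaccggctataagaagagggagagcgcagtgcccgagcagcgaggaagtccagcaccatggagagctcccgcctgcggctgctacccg
The element begins 69 bases before the start of Th, 52 before that of Slc18a2 and 142 before that of Cartpt. Searched as these 8 letters, which read the same on both strands, it was present in 1.83% of 33469 RefSeq promoter windows of this length and in 3.25% of the windows of genes tested here. It was present in 38 of 776 windows of genes called higher (4.9%) and in 16 of 823 of genes called lower (1.94%). Of the 15 genes with the largest excess 13 had a window and 3 held the element, and of the 15 with the largest deficit 13 had a window and none held it. A match of letters describes the sequence and shows no binding.

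Neuropeptide genes as a group were higher in the oculomotor nucleus: of 25 tested, 15 were higher and 3 lower, with a median log2 difference of 0.50. Adcyap1, the precursor of the peptide PACAP, had 769.9, 733 and 701 on the oculomotor arrays, against 194, 276 and 289 on the cord arrays, a log2 difference of 1.56. Vip, vasoactive intestinal peptide, was higher by 1.22 on the log2 scale, Tac1, the precursor of substance P, by 0.99, and Gal, galanin, by 0.70. The granule proteins Scg2 and Scg5, which package peptides for secretion, were higher by 1.22 and 0.67 on the log2 scale. Exceptions were Npy, Calca and Igf2, a growth factor of meninges and choroid plexus that was lower, at -0.71 on the log2 scale (limma adjusted p = 0.0519 without oculomotor array 3). Npy, neuropeptide Y, had 578, 732 and 698 on the oculomotor arrays, against 1354, 1795 and 1332 on the cord arrays, a log2 difference of -1.15 (SE 0.13, limma adjusted p = 1.91e-06). Calca, the precursor of the calcitonin gene-related peptide of primary sensory and many motor neurons, had 46.6, 55.9 and 54.5 on the oculomotor arrays, all under the floor, against 618, 675 and 769 on the cord arrays. Calca was therefore at least 10.3-fold lower, with a limma adjusted p of 4.37e-11.

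Genes that define cholinergic motor neurons were measured above the floor in the oculomotor nucleus but at a lower level than in the cord. Chat, choline acetyltransferase, had 191, 107 and 168 on the oculomotor arrays, against 326, 437 and 338 on the cord arrays, a log2 difference of -1.27 (SE 0.22, limma adjusted p = 0.000248). Slc18a3, the vesicular acetylcholine transporter whose gene lies inside the Chat locus, had 255, 111 and 194 on the oculomotor arrays, against 554, 905 and 854 on the cord arrays. Its log2 difference was -2.09 (SE 0.24, limma adjusted p = 3.99e-06). Slc5a7, the choline transporter of cholinergic terminals, had 519, 489 and 610.2 on the oculomotor arrays, against 1121, 1481 and 825 on the cord arrays, and was lower, with a log2 difference of -1.05. Prph, peripherin, an intermediate filament of neurons with peripheral axons, had 503, 412 and 486 on the oculomotor arrays, against 1096, 1260 and 1279 on the cord arrays, a log2 difference of -1.38 (SE 0.11, limma adjusted p = 4.28e-08). In all 4 genes every oculomotor array lay below every cord array.

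Of the 11 motor neuron and cholinergic genes tested, out of 24 on the array, 4 were higher and 5 lower, with a median log2 difference of 0.11. The 5 lower ones were the 4 genes just described and Calca. Sv2a, a synaptic vesicle protein, had 1844, 1540 and 1816 on the oculomotor arrays, against 519.8, 798 and 918 on the cord arrays, and was higher by 1.25 on the log2 scale, and Chrm3, a muscarinic receptor, was higher by 1.01. Phox2a, the transcription factor that the oculomotor nucleus needs in order to form, was too dim to be tested, with 91.6, 145 and 124 on the oculomotor arrays, against 172, 134 and 90.4 on the cord arrays, ranges that overlapped. Tested without the filter on dim probe sets, its log2 difference was -0.12 (limma adjusted p = 0.932). Isl1, a transcription factor of motor and sensory neurons, was under the floor on all 3 oculomotor arrays, with 22.6, 23.3 and 57.3, against 51, 68 and 131 on the cord arrays, 1 of these under the floor, and was not called without the filter (limma adjusted p = 0.482). Chat, Slc18a3, Slc5a7 and Prph were thus above the floor on all 3 oculomotor arrays, while Isl1 was not. Th, Slc6a3 and Slc6a4, which motor neurons do not make, were above the floor there too, and also on all 3 cord arrays. Because the floor is the pooled 20th percentile of all signals, most probe sets pass it, and passing it is no test of the label. The labels do not say how much tissue around the nucleus was taken, and its part in the differences was not tested.

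The 3 neurofilament genes were lower in the oculomotor nucleus. Nefh, the heavy neurofilament subunit, had 5802, 6055 and 5621 on the oculomotor arrays, against 8964, 8273 and 10280 on the cord arrays, and was lower, with a log2 difference of -0.65. Nefm, the medium subunit, was lower, at -0.61 on the log2 scale, and Nefl, the light subunit, at -0.57. A second probe set of Nefl read -0.34 and was not called (limma adjusted p = 0.0548). Of 22 genes of the group tested, 1 was higher and 6 lower, so that 15 showed no call, with a median of -0.07. Prph is among the 6. Tuba4a, an alpha-tubulin, was the gene called higher, by 0.40.

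The Hox genes that were called were lower in the oculomotor nucleus. Of 8 on the array, 2 were bright enough to be tested, and both were called lower. At 6 months all their oculomotor signals lay under the filter level (log2 of 7.46) and all their cord signals above it. A lower call was therefore favoured by the filter, and the count is no test of the direction. Hoxd8 had 48.5, 80.4 and 122 on the oculomotor arrays, 1 of these values under the floor, against 1231, 1713 and 1273 on the cord arrays, a log2 difference of -4.00 (SE 0.20, limma adjusted p = 4.37e-11). Hoxa5 had 16.9, 108 and 57 on the oculomotor arrays, 2 of them under the floor, against 1097, 812 and 750 on the cord arrays, a log2 difference of -3.48 (SE 0.18, limma adjusted p = 5.14e-11). Raising values to the floor makes these differences smaller than the signals alone would. Tested without the filter on dim probe sets, Hoxb7 and Hoxc4 were also lower, with all 3 oculomotor arrays under the floor. Hoxb7 read 9.1, 5.2 and 13.2 on the oculomotor arrays, against 161, 169.5 and 202 on the cord arrays, at least 2.66-fold lower (limma adjusted p = 7.63e-06). Hoxc4 read 19.3, 27.5 and 19.6 on the oculomotor arrays, against 115, 243 and 239.6 on the cord arrays, at least 2.84-fold lower (limma adjusted p = 0.00626). Hoxc8 was under the floor on all oculomotor arrays, with 2.5, 7.3 and 6.5, against 79.7, 111 and 68.3 on the cord arrays, and was not called (limma adjusted p = 0.638). Hoxa10 and Hoxd3 lay under the floor on all 6 arrays, and Hoxa11 overlapped between the tissues, with 140.3, 63.7 and 84.6 on the oculomotor arrays, against 109.7, 90.1 and 98.8 on the cord arrays.

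The promoter windows of Hoxd8 and Calca, a Hox gene and a peptide gene among the 15 with the largest deficit, are shown as a pair of unlike composition, with no motif marked. They lie at chr3:80014973-80015272 (plus strand) and chr1:178317480-178317779 (minus strand) on build GRCr8, from RefSeq.
Hoxd8: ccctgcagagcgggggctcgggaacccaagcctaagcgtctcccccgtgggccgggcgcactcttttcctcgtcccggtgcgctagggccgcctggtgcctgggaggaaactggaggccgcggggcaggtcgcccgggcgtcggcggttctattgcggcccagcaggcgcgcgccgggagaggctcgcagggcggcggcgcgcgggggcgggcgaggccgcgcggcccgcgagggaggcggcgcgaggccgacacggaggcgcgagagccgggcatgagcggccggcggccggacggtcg
Calca: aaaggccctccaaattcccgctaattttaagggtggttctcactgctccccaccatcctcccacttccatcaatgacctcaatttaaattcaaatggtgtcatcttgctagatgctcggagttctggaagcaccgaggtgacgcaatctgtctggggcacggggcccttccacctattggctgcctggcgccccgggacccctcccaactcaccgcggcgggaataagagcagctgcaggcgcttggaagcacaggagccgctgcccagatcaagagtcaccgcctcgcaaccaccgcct
The Hoxd8 window holds 49 CpG dinucleotides at a GC content of 79.0%, and 0.866% of all windows hold as many. The Calca window holds 15 at 58.0% GC, against a median of 7 over all windows.

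Other regional transcription factors were mixed. Tcf7l2, a factor of the Wnt pathway expressed in thalamus and dorsal midbrain, had 1100, 1330 and 1375 on the oculomotor arrays, against 258, 291 and 248 on the cord arrays, a log2 difference of 2.25 (SE 0.13, limma adjusted p = 3.19e-10). Pbx3, a cofactor of Hox proteins, had 2289, 2270 and 2382 on the oculomotor arrays, against 3739, 3848 and 4031 on the cord arrays, and was lower, with a log2 difference of -0.74. Of the 10 tested, 3 were higher, Tcf7l2, Nr2f2 and Gata2, and 1 was lower. The count of higher ones was 1 without oculomotor array 2 and 1 without cord array 3, and 2 were lower without oculomotor array 1, cord array 1 or cord array 3. Nr2f2, at 0.41 on the log2 scale, missed the threshold without oculomotor array 1, 2 or 3 (limma adjusted p = 0.122, 0.0583 and 0.133) and without cord array 2 or 3 (0.183 and 0.0554). Gata2 missed it without oculomotor array 2, cord array 1 or cord array 3. In the retinoid pathway, which patterns the caudal nervous system, Aldh1a2, the enzyme that makes retinoic acid in meninges and motor columns, was lower, at -1.32 on the log2 scale, and the binding protein Crabp2 at -1.25. In that group 1 of 9 was higher and 3 were lower, and none was higher without oculomotor array 2, cord array 1 or cord array 3.

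Inhibitory transmission was represented by genes of both directions, more of them higher. Gad2 and Gad1, the 2 enzymes that make GABA, were higher by 1.91 and 1.22 on the log2 scale. Gad2 had 861, 651 and 847 on the oculomotor arrays, against 259.9, 174 and 199 on the cord arrays. Glra2, a glycine receptor subunit, had 494, 477 and 504 on the oculomotor arrays, against 182, 124 and 110.3 on the cord arrays, a log2 difference of 1.86 (SE 0.25, limma adjusted p = 1.79e-05). Slc6a11, a GABA transporter of astrocytes, was higher by 0.87 on the log2 scale and missed the threshold without oculomotor array 2 (limma adjusted p = 0.0525) and without cord array 2 (0.0999). Slc6a9, the glial glycine transporter, ran the other way, with 2626, 2747 and 2658 on the oculomotor arrays, against 3657, 3936 and 4272 on the cord arrays, a log2 difference of -0.56 (SE 0.13, limma adjusted p = 0.00359). Slc6a5, the transporter of glycinergic terminals, was too dim for the filter, with 50.2, 21.3 and 12.5 on the oculomotor arrays, all under the floor, against 207, 97.9 and 200.5 on the cord arrays. Tested without the filter it was at least 2.40-fold lower (limma adjusted p = 0.0403). Of 12 genes of GABA and glycine handling tested 5 were higher and 1 lower, with a median log2 difference of 0.25, and 3 were higher without cord array 2. Gabrb2, a GABA receptor subunit, had 2531, 2151 and 2556 on the oculomotor arrays, against 665, 679 and 621 on the cord arrays, the largest of the 3 receptor genes called higher among 8 tested. That count was 1 without oculomotor array 1, without cord array 1 or without cord array 2.

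Slc17a7, the vesicular glutamate transporter of cortical and cerebellar neurons, had 684, 1264 and 1051 on the oculomotor arrays, against 112, 122 and 139.5 on the cord arrays, a log2 difference of 2.97 (SE 0.48, limma adjusted p = 0.000133). Its oculomotor values differed among themselves more than those of the monoamine genes. Slc17a6, the transporter of most subcortical glutamate neurons, was higher by a log2 difference of 0.60. The AMPA receptor subunits Gria2 and Gria1 were higher by 1.16 and 1.01 on the log2 scale, and Camk2b, a kinase of excitatory synapses, by 0.48. Of 18 genes of the glutamate group 8 were higher and none lower, with a median of 0.40, and 5 were higher without oculomotor array 2 or without cord arrays 1 and 2. Among 14 receptors for monoamines, opioids and other transmitters, 3 were higher, led by the cannabinoid receptor gene Cnr1 at 0.71, and 11 showed no call. The count was 1 without oculomotor array 1 or 3 and without cord arrays 1 and 2.

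Synaptic vesicle and plasticity genes were higher in 14 of 31 cases and lower in 1, with a median of 0.34. Gap43, a protein of growing and plastic axon endings, had 5185, 4751 and 4707 on the oculomotor arrays, against 2185, 1846 and 1756 on the cord arrays, a log2 difference of 1.34 (SE 0.11, limma adjusted p = 7.25e-08). Cplx2, a complexin of vesicle release, was higher by 1.34 on the log2 scale, Syt4, a synaptotagmin, by 0.98, and Vamp2, the vesicle SNARE, by 1.16. Svop, a vesicle membrane protein outside the list, was higher by 2.01 on the log2 scale. Sncg, already described among dopamine markers, was the gene called lower. Genes outside the lists were also among the 15 with the largest excess. They included Zcchc12, a zinc finger gene of the brain, with 4473, 4050 and 3860 on the oculomotor arrays, against 1013, 1324 and 1142 on the cord arrays, Bex1 at a log2 difference of 1.99 and Nat8f5 at 2.63.

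Ion channel genes differed by type. Of 19 sodium, calcium and HCN channel genes tested, 11 were higher in the oculomotor nucleus and 2 lower, with a median log2 difference of 0.73, and 7 were higher without cord arrays 1 and 2. The lower ones were 1 without any single oculomotor array or without cord array 1. Scn2a, a sodium channel of axons that are thinly or not myelinated, had 642, 672 and 812 on the oculomotor arrays, against 299, 200.1 and 294 on the cord arrays, a log2 difference of 1.44 (SE 0.18, limma adjusted p = 7.61e-06). The accessory subunits Scn2b and Scn3b were higher by 1.68 and 1.35 on the log2 scale, and Cacnb3, a calcium channel subunit, by 1.25. Scn4b, a sodium channel subunit of fast-firing neurons, had 1608, 1939 and 1595 on the oculomotor arrays, against 3246, 3678 and 3690 on the cord arrays, a log2 difference of -1.05 (SE 0.12, limma adjusted p = 2.87e-06). Potassium channel genes had 6 of 28 higher and 3 lower, with a median of -0.05. Kcnip4, an A-type channel partner, was higher by 1.11 on the log2 scale, Kcnd3, an A-type channel, by 1.09, and Kcnc2, a channel of fast-spiking cells, by 0.95. Another probe set of Kcnc2 read 0.72 and was not called (limma adjusted p = 0.0531), and 1 more, at 1.13, was called (0.000982). Kcna1, which sits beside the nodes of myelinated axons, had 898, 1124 and 1018 on the oculomotor arrays, against 2095, 2501 and 2461 on the cord arrays, and was lower, at -1.22 on the log2 scale. Kcns3, a modifier subunit, was lower, at -1.18 on the log2 scale.

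Of 26 genes of calcium buffers, pumps and sensors, 7 were higher, 2 lower and 17 showed no call, with a median of 0.12. Calb2, calretinin, had 4625, 5036 and 4769 on the oculomotor arrays, against 1427, 2381 and 2285 on the cord arrays, a log2 difference of 1.28 (SE 0.16, limma adjusted p = 1.11e-05). Calb1, calbindin, was higher by 1.21 on the log2 scale, and the calmodulin-binding protein genes Pcp4 and Nrgn by 0.63 and 0.64. In G protein signalling, 10 of 40 were higher and 6 lower, with Rgs8 higher by 1.18 on the log2 scale, Adcy2, an adenylyl cyclase, by 1.11, and Gng11, a gamma subunit, lower, at -1.22. The count of lower ones was 3 without oculomotor array 1 or 3. Of 33 genes of axon guidance and adhesion 9 were higher and 3 lower, among them Ncam1 at 0.85 and Sema4d, a semaphorin of oligodendrocytes, at -1.55, and 2 were higher without cord arrays 1 and 2.

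**Figure D3:**
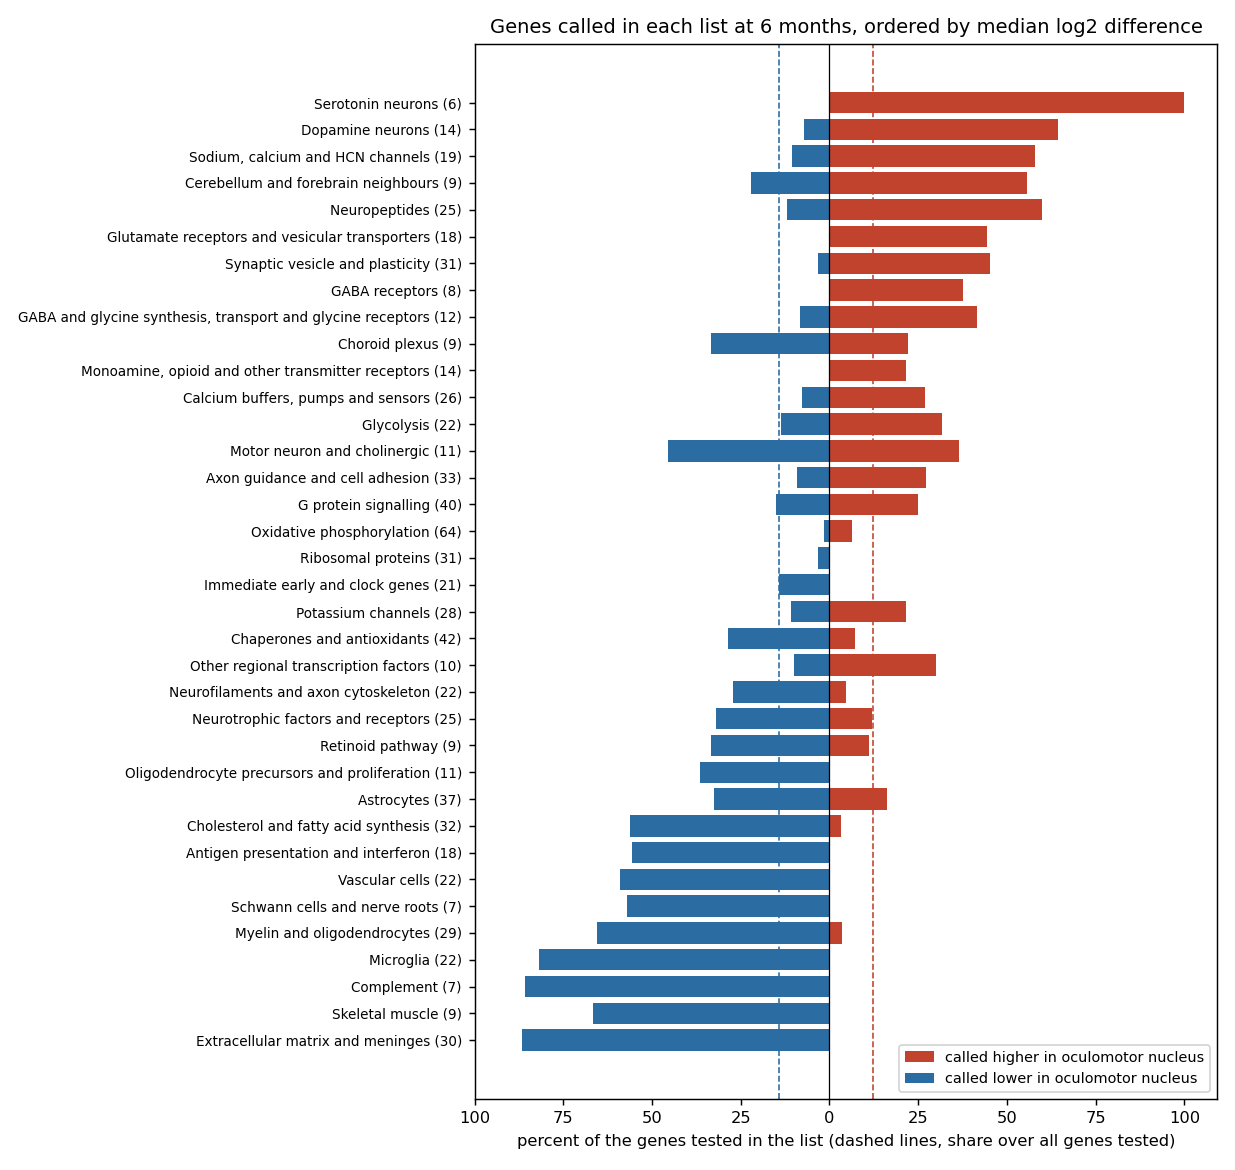
Share of each gene list called at 6 months. Each bar pair gives the percent of the tested genes of a list (their number in brackets) that were called higher in the oculomotor nucleus (red, to the right) or lower (blue, to the left). Lists with at least 6 genes tested are ordered by their median log2 difference, and dashed lines mark the shares over all 6958 genes, 12.3% higher and 14.1% lower. Serotonin neuron genes stand at the top with 6 of 6 higher, a count favoured by the filter, and matrix and meningeal genes at the bottom with 26 of 30 lower.

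Myelin and oligodendrocyte genes were lower in the oculomotor nucleus: of 29 tested, 19 were lower and 1 higher, with a median log2 difference of -0.61. Klk6, a serine protease of oligodendrocytes, had 1155, 1176 and 1215 on the oculomotor arrays, against 3372, 3890 and 3362 on the cord arrays, a log2 difference of -1.58 (SE 0.10, limma adjusted p = 9.17e-10). Mog, a glycoprotein of the outer myelin sheath, had 2371, 2452 and 2202 on the oculomotor arrays, against 3884, 4176 and 3636 on the cord arrays, a log2 difference of -0.73. Gjb1, a connexin of oligodendrocytes and Schwann cells, was lower, at -1.04 on the log2 scale, Ndrg1 at -0.86 and the lineage factor Sox10 at -0.67. Mbp, myelin basic protein, did not separate the tissues, with 15020, 12690 and 12390 on the oculomotor arrays, against 17660, 11790 and 21100 on the cord arrays, a log2 difference of -0.30 (limma adjusted p = 0.299). The summed signal of the 29 genes was 109969, 105652 and 101180 on the oculomotor arrays and 147468, 128167 and 156919 on the cord arrays.

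Among genes of oligodendrocyte precursors and proliferation 4 of 11 were lower and none higher. Pdgfra, the receptor that marks precursors, was lower, at -0.54 on the log2 scale (limma adjusted p = 0.0722 without oculomotor array 2), and the cyclin gene Ccnd2 at -1.14. Among 7 tested genes of Schwann cells and nerve roots 4 were lower. Pmp22, a protein of peripheral myelin also made in the cord, had 1146, 1303 and 1210 on the oculomotor arrays, against 3729, 3287 and 4733 on the cord arrays, a log2 difference of -1.67 (SE 0.13, limma adjusted p = 2.52e-08). Of 11 sensory ganglion markers on the array 3 were tested. Calca and Prph were lower and Tac1 higher, and these 3 genes are also made by cells of the cord and brain. The summed signal of the Schwann cell list was 27281, 25516 and 24463 on the oculomotor arrays and 36663, 32617 and 43469 on the cord arrays, and the part of nerve roots in the result was not tested.

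Astrocyte genes divided into both directions, with 6 of 37 higher, 12 lower and a median of -0.32. Gfap, the astrocyte intermediate filament that is dense in white matter, had 5455, 5023 and 5068 on the oculomotor arrays, against 11090, 10550 and 14120 on the cord arrays, a log2 difference of -1.19 (SE 0.13, limma adjusted p = 1.89e-06). Vim, vimentin, was lower, at -1.11 on the log2 scale, and Fabp7, a fatty acid binding protein, at -1.03. Slc1a3, the glutamate transporter GLAST, had 4268, 4188 and 3977 on the oculomotor arrays, against 1791, 1829 and 2238 on the cord arrays, a log2 difference of 1.09 (SE 0.10, limma adjusted p = 3.59e-07). Plpp3, a lipid phosphatase, and Itih3 were higher by 0.57 and 0.51 on the log2 scale, and the count of higher ones was 1 without cord arrays 1 and 2. Aqp4, the water channel of astrocyte endfeet, gave opposite calls: the brightest probe set was lower, at -0.44 on the log2 scale (limma adjusted p = 0.0157), a second was lower, at -0.62 (0.00986), and another was higher at 0.59 (0.00807). The brightest missed the threshold without oculomotor array 3 (limma adjusted p = 0.069) or cord array 1 (0.0604), and no direction is given for Aqp4. Of the 3 ependymal genes tested, Cd24 and Rarres2, both also made outside the ependyma, were lower, at -1.62 and -1.28 on the log2 scale.

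Microglial genes were lower in the oculomotor nucleus: 18 of 22 tested were lower and none higher, with a median of -0.62. Lgals3, galectin-3, a lectin of activated phagocytes, had 145, 139 and 139 on the oculomotor arrays, against 412, 475 and 419 on the cord arrays, a log2 difference of -1.62 (SE 0.27, limma adjusted p = 0.000186). Tmem119, a surface protein of resident microglia, had 188, 187 and 235 on the oculomotor arrays, against 309.8, 357 and 329 on the cord arrays, a log2 difference of -0.71. Mpeg1 and Cd53, 2 genes of myeloid cells, were lower, at -0.70 and -0.64 on the log2 scale, and a second, dimmer probe set of Mpeg1 was not called. The summed signal of the list was 12724, 12990 and 13802 on the oculomotor arrays and 19653, 20385 and 18666 on the cord arrays, without overlap. The count moved with the setting: 9 were lower without cord arrays 1 and 2, with a median of -0.64, and 2 once the mean of the muscle list entered the fit as a covariate, with a median of -0.52.

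Complement and antigen presentation genes were lower as well. Of 7 complement genes 6 were lower and none higher, with a median of -0.79, and a fit with the muscle list as covariate gave 3. C3, the central component, had 486, 556 and 596 on the oculomotor arrays, against 1541, 1573 and 1447 on the cord arrays, a log2 difference of -1.48 (SE 0.13, limma adjusted p = 1.58e-07). Serping1, the inhibitor of the first component, was lower, at -2.14 on the log2 scale, and C1qa, a subunit of the initiator C1q that microglia make, at -0.79. C1qa is also in the microglial list, so that the counts of these groups are not independent of each other. Of 18 genes of antigen presentation and interferon response 10 were lower and none higher, with a median of -0.44. Cd74, the invariant chain of class II molecules, had 541, 475 and 344 on the oculomotor arrays, against 1581, 2351 and 1918 on the cord arrays, and RT1-Da, a class II chain of the rat, had 291, 316 and 283 on the oculomotor arrays, against 1135, 1321 and 1401 on the cord arrays. Each had a log2 difference of -2.11, and both are also made by meningeal and perivascular macrophages. Ifitm3, an interferon-induced membrane protein, was lower, at -1.07 on the log2 scale.

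Extracellular matrix and meningeal genes were lower in the oculomotor nucleus: 26 of 30 were lower and none higher, with a median of -0.96. Dcn, decorin, a proteoglycan of collagen fibrils, had 247, 290.3 and 255 on the oculomotor arrays, against 977, 1042 and 1538 on the cord arrays, a log2 difference of -2.14 (SE 0.20, limma adjusted p = 2.96e-07). The fibrillar collagen genes Col3a1 and Col1a1 were lower, at -2.05 and -1.92 on the log2 scale, and the small proteoglycan gene Ogn at -1.85. Slc13a4, a sulfate transporter of the leptomeninges and choroid plexus, was lower, at -0.97 on the log2 scale. The summed signal was 20219, 21485 and 20927 on the oculomotor arrays and 38635, 32812 and 44418 on the cord arrays, and of the 51 list members 46 were on the array and 30 tested. Among the 15 genes with the largest deficit, S100a4, S100a6, Emp1, Timp1, Aebp1 and the laminin receptor gene Itgb4 lie outside this list but are known from connective tissue, epithelia or injured tissue. S100a4, a calcium-binding protein of fibroblasts and white matter astrocytes, had 111, 70.6 and 48.8 on the oculomotor arrays, 1 of these under the floor, against 684, 638 and 776 on the cord arrays, a log2 difference of -3.12 (SE 0.21, limma adjusted p = 4.78e-09). Timp1, an inhibitor of matrix proteases, had 45.3, 70 and 95.5 on the oculomotor arrays, 1 of them under the floor, against 379, 305 and 355 on the cord arrays, a log2 difference of -2.18. Whether meninges remained on the tissue pieces was not recorded in the labels, and their part in these differences was not tested.

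Vascular genes had 13 of 22 lower and none higher, with a median of -0.49, and 8 lower without cord arrays 1 and 2. Mylk, the myosin light chain kinase of smooth muscle that other cells make too, had 462, 490 and 525 on the oculomotor arrays, against 2856, 3166 and 3192 on the cord arrays, a log2 difference of -2.64 (SE 0.09, limma adjusted p = 3.5e-13). Tagln, transgelin of smooth muscle, had 95.9, 113 and 107 on the oculomotor arrays, against 341, 349.5 and 331 on the cord arrays. Vwf, the endothelial clotting factor, was lower, at -1.14 on the log2 scale, and Slc2a1, the glucose transporter of the blood-brain barrier, at -0.52. Of 9 blood genes on the array 3 were tested and all were lower. Hbb, beta-globin, had 4609, 4987 and 7553 on the oculomotor arrays, against 13400, 10870 and 11790 on the cord arrays, a log2 difference of -1.10 (limma adjusted p = 0.00792). The summed signal of these 3 genes was 4912, 5372 and 8013 on the oculomotor arrays and 14762, 12076 and 12619 on the cord arrays, and 1 of the 3 passed without cord arrays 1 and 2.

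Skeletal muscle transcripts were uneven among the cord arrays. Acta1, skeletal alpha-actin, had 296, 262 and 249 on the oculomotor arrays, against 2007, 3631 and 253 on the cord arrays. Cord array 3 lay inside the oculomotor range, so that the tissues overlapped although the gene passed the threshold (log2 difference -2.19, limma adjusted p = 0.0183). Ckm, muscle creatine kinase, had 114, 123 and 129.8 on the oculomotor arrays, against 680, 1227 and 111 on the cord arrays, with cord array 3 below every oculomotor array. Atp2a1, the calcium pump of fast muscle, had 108, 154 and 117 on the oculomotor arrays, against 898, 1978 and 182 on the cord arrays. Without cord arrays 1 and 2 the log2 difference was 0.08 for Acta1, 0.14 for Ckm and -0.54 for Atp2a1, none past the threshold. Without cord array 2 alone they missed it too, with limma adjusted p-values of 0.124, 0.176 and 0.0551, and without cord array 1 Acta1 (0.0747) and Ckm (0.0976) did. Acta1 missed it without oculomotor array 3 (0.0533), and Ckm without oculomotor array 1 (0.0737), 2 (0.0663) or 3 (0.0607). Of 40 list members on the array 9 were tested and 6 were lower, and 2 were lower without cord array 2 or without cord arrays 1 and 2. Tnnc2, a troponin of fast muscle, had 96.6, 120 and 88.8 on the oculomotor arrays, against 781, 1252 and 406 on the cord arrays, without overlap. The summed signal of the 9 genes was 5777, 5572 and 5652 on the oculomotor arrays and 10678, 15266 and 7032 on the cord arrays.

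Choroid plexus transcripts were uneven among the oculomotor arrays. Ttr, transthyretin, the main secreted protein of the plexus, had 3720, 164 and 124 on the oculomotor arrays, against 133, 137 and 201 on the cord arrays, and was not called (log2 difference 1.46, limma adjusted p = 0.256). Only oculomotor array 1 was high, and without it the log2 difference was -0.11. Of 9 tested genes of the list 2 were higher and 3 lower, with a median of 0.22. Without oculomotor array 1 none was higher and 4 were lower, with a median of -0.11, and 1 was higher without oculomotor array 3, cord array 2 or cord array 3.

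**Figure D4:**
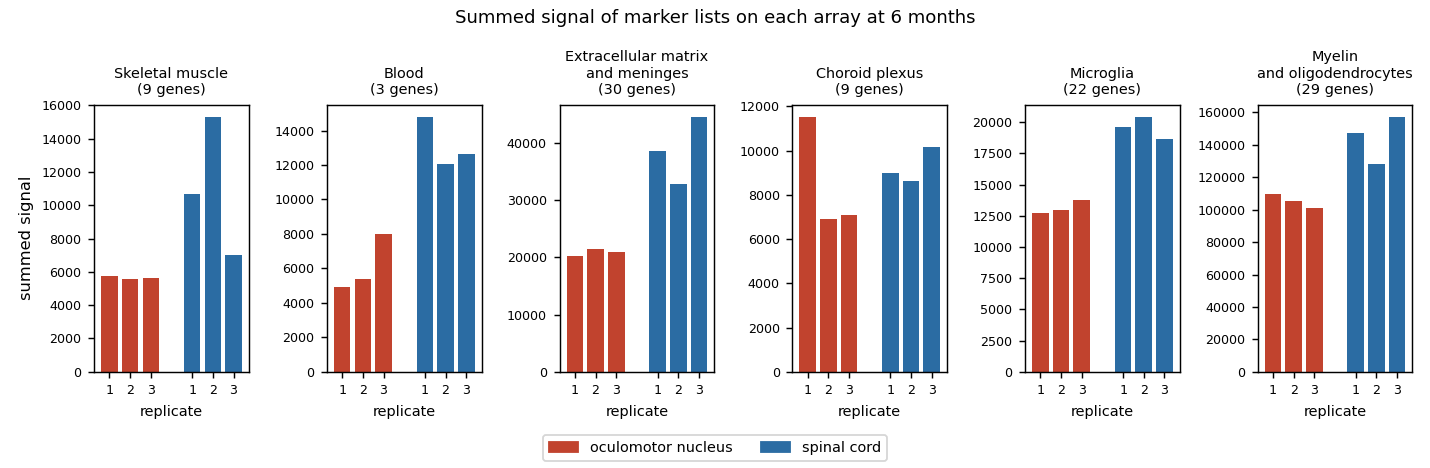
Summed signal of 6 marker lists on each 6-month array, on a linear scale from 0 with an axis of its own for each list. Red bars are oculomotor arrays 1 to 3 and blue bars cord arrays 1 to 3. Muscle transcripts reach 15266 on cord array 2 and 7032 on cord array 3, choroid plexus transcripts reach 11499 on oculomotor array 1, and matrix, blood, microglial and myelin sums are lower on every oculomotor array.

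Of 22 genes of glycolysis 7 were higher in the oculomotor nucleus and 3 lower, with a median of 0.12. Ldha, a lactate dehydrogenase subunit, had 2284, 2096 and 2059 on the oculomotor arrays, against 987, 1306 and 935 on the cord arrays, a log2 difference of 1.01 (SE 0.11, limma adjusted p = 1.16e-06). Gpi and Pfkl, early enzymes of glycolysis, were higher by 0.68 and 0.75 on the log2 scale. Pygm, the glycogen phosphorylase of muscle and astrocytes that is also in the muscle list, was lower, at -0.77 on the log2 scale. Of 64 genes of oxidative phosphorylation 4 were higher and 1 lower, and of 31 ribosomal protein genes none was higher and 1 lower, shares below those over all genes, and the 4 were 1 without oculomotor array 2 or without cord array 2. These 2 groups had medians of 0.08 and 0.00.

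Cholesterol and fatty acid synthesis was lower in the oculomotor nucleus, with 18 of 32 genes lower, 1 higher and a median of -0.42. Scd, the stearoyl-CoA desaturase, had 227, 288 and 269.9 on the oculomotor arrays, against 861, 1054 and 681 on the cord arrays, a log2 difference of -1.71 (SE 0.16, limma adjusted p = 2.28e-07). Lss, lanosterol synthase, had 521, 469 and 549.6 on the oculomotor arrays, against 1193, 1159 and 1076 on the cord arrays, a log2 difference of -1.16 (SE 0.12, limma adjusted p = 5.58e-07). Elovl1, which lengthens fatty acids for myelin, was lower, at -1.10 on the log2 scale, and the sterol reductase Tm7sf2 at -1.09. The count was 11 without cord arrays 1 and 2 and 9 when the muscle list entered the fit as a covariate, with medians of -0.34 and -0.40. Among chaperones and antioxidants 12 of 42 were lower and 3 higher, or 1 higher without oculomotor array 2 or without cord array 2. Hspb1, a small heat shock protein of motor and sensory neurons and of glia, had 242, 232 and 313 on the oculomotor arrays, against 1057, 2068 and 978 on the cord arrays, a log2 difference of -2.31 (SE 0.24, limma adjusted p = 9.3e-07). Sod3, the extracellular superoxide dismutase, was lower, at -1.14 on the log2 scale, and Hspa2 at -1.55.

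Neurotrophic factors and receptors had 8 of 25 lower and 3 higher, and 5 lower without oculomotor array 3. Cntf, the ciliary neurotrophic factor of astrocytes and Schwann cells, had 260.2, 267 and 284 on the oculomotor arrays, against 558, 658 and 679 on the cord arrays, a log2 difference of -1.22 (SE 0.12, limma adjusted p = 5.79e-07). Igfbp2, a binding protein of insulin-like growth factors, was lower, at -1.10 on the log2 scale. Gfra2, the neurturin receptor, and Fgf13, an intracellular partner of sodium channels, were higher by 0.55 and 0.78 on the log2 scale. Immediate early and clock genes showed 3 of 21 lower and none higher, and 1 lower and 2 higher without cord arrays 1 and 2. Fos, the activity-induced factor, had 231, 327 and 396 on the oculomotor arrays, against 202, 169.7 and 248 on the cord arrays, ranges that overlapped.

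The same tissues were compared on the arrays of 18 and 30 months, none of which enters the group means compared at 6 months. The 3 comparisons came from 1 model of all 18 arrays, with 1 shared estimate of the spread per probe set. The filter also used all 18 arrays, so that calls at different ages are not independent of each other. At 18 months 2481 probe sets (26.2%) were called, 1163 higher in the oculomotor nucleus and 1318 lower, and at 30 months 1988 (21%), 920 higher and 1068 lower. Of the 2478 called at 6 months, 1732 were called in the same direction at 18 months, which is 69.9% of the calls at 6 and 69.8% of those at 18 months, and 0 in the opposite direction. At 30 months 1488 were called in the same direction, 60.1% of the calls at 6 and 74.9% of those at 30 months, and 1 in the opposite. Of the calls at 6 months, 97.9% had the same sign at 18 months and 97.0% at 30 months, against 78.5% and 76.7% of all probe sets tested. Across all 9482 probe sets the log2 differences at 6 and 18 months correlated with Pearson's r of 0.866, and those at 6 and 30 months with 0.842, a description across probe sets, which are not independent of each other. At all 3 ages 1346 probe sets were called in the same direction, 600 higher and 746 lower, while 603 were called at 6 months only.

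Th had log2 differences of 4.50, 4.78 and 4.70 at 6, 18 and 30 months, and Slc6a4 of 3.84, 3.98 and 4.38. Cartpt had 3.12, 2.97 and 3.31, Hoxd8 -4.00, -4.75 and -3.93, and Calca -3.37, -3.52 and -3.50. Chat, the cholinergic enzyme, had -1.27, -1.68 and -1.42. Of the gene groups, 6 of 6 tested serotonin markers were higher at each age, and 26, 23 and 23 of 30 matrix genes were lower at 6, 18 and 30 months. The serotonin count is favoured by the filter, which used the arrays of all ages. Myelin genes lower in the oculomotor nucleus numbered 19, 17 and 16 of 29, and microglial genes 18, 21 and 17 of 22. Other groups shifted, with muscle genes lower in 6, 3 and 2 of 9 cases and a median over potassium channel genes of -0.05, 0.07 and 0.16, and these shifts were not tested.

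Whether the tissue difference itself changed with age was tested with limma's F statistic over both interaction contrasts, and no probe set was called (0% of 9482), while 428 had an unadjusted p under 0.05, which is 4.51%. The smallest p belonged to Lgals3, with log2 differences of -1.62, -3.78 and -2.95 at 6, 18 and 30 months (limma adjusted p = 0.807). RT1-Da, with -2.11, -2.81 and -1.47, Slc13a4, with -0.97, -1.63 and -2.05, and Lss, with -1.16, -0.49 and -0.51, followed among the 10 smallest p-values and were not past the test (limma adjusted p = 0.859). Genes of cholesterol and fatty acid synthesis lower in the oculomotor nucleus numbered 18 of 32 at 6 months and 7 at each later age, with medians of -0.42, -0.05 and -0.16, and the difference between these counts was not tested. The muscle genes Acta1 and Atp2a1 had log2 differences of -2.19, -1.11 and -0.12 and of -2.46, -0.96 and 0.36 at the 3 ages.

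**Figure D5:**
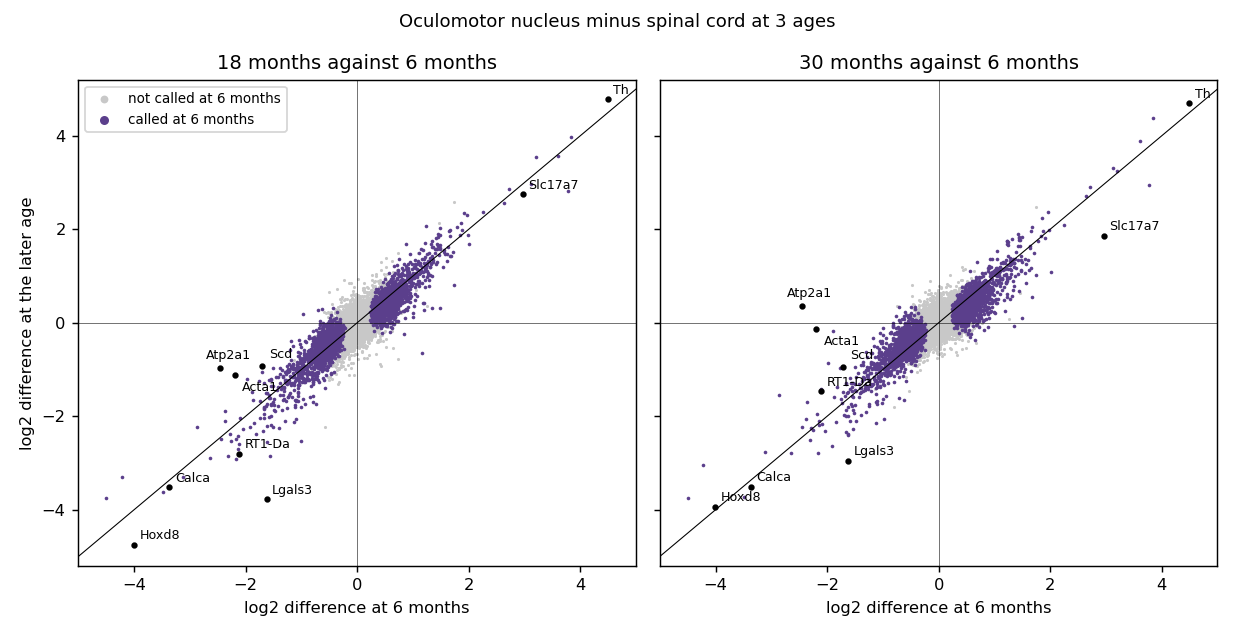
Log2 difference between the tissues, oculomotor nucleus minus spinal cord, at 18 months (left) and 30 months (right) against that at 6 months, for 9482 probe sets. Purple points were called at 6 months, grey points were not, black points are the labelled genes, and the diagonal marks equal differences. Th and Calca lie near the diagonal in both panels, while Atp2a1 and Acta1 lie above it and Lgals3 below it at both later ages.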

How the data were processed

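Per the labels and the series' design text, RNA pooled from 4 rats per sample was hybridised to Affymetrix RA230 arrays, and the authors' deposited table holds 1 signal intensity per probe set and array from Affymetrix Microarray Suite 5.0, on a linear scale and without detection calls. How the authors scaled the arrays is not stated there, and the equal 2% trimmed means of the arrays were read from the values. Gene names came from the platform annotation, updated through RefSeq (GRCr8): of 15923 probe sets 12789 named 1 gene, 312 several and 2822 none, and 57 are controls.

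Signals were brought to a common 2% trimmed mean (factors 0.999981 to 1.00002), raised to a floor at the pooled 20th percentile (66.4), and log2 was taken. Probe sets with a mean above the pooled 40th percentile (7.46) were kept, 9482 in all. A gene bright in 1 tissue can pass this filter through that tissue alone, which favours a call in its direction. Using limma 3.58.1 under R 4.3.3, 1 model with 6 group means took in the 18 arrays (eBayes with trend, 12 residual and 18.8 total degrees of freedom), p-values were adjusted by Benjamini-Hochberg, and a call needed an adjusted p under 0.05. The fit was tested on simulated data with independent normal noise at the spread of each probe set. For each size of difference 50 of 9482 probe sets were changed, all in the 6-month oculomotor group. This is a far smaller share than the 26.1% called in the data, and noise shared within an array was left out. The shares recovered therefore describe that setting and not the power of the comparison itself. Differences of 0.5 on the log2 scale were recovered in 18 of 50 cases (36%), of 1 in 48 of 50, and of 2 and 4 in 50 of 50 each. Among 174 simulated calls 8 were false. Small differences can be missed, and no call does not show equal levels. Signals are given per array as scaled, without the floor, and differences come from the fit on floored values. The number of arrays, 3 per group, limits the precision.

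The 40 gene lists, written from textbook knowledge with 1333 members, 1061 of them on the array, and the rule for naming genes were chosen with earlier results of these data known. Named are the 15 genes with the largest non-overlapping called difference in each direction, up to 8 members per list with the smallest p, and fixed regional and cell type markers. Alternatives covered normalization, floor, filter, samples in the fit, left-out arrays and neighbouring tissue.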

Additional observations from a re-analysis of the deposited data

How the results depend on the processing

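At 6 months 2478 probe sets were called, 1203 higher in the oculomotor nucleus and 1275 lower. With the mean of the skeletal muscle list as a covariate the counts were 1211, 565 and 646. Without cord arrays 1 and 2, an alternative chosen after seeing the data, which leaves 1 cord array assumed to vary like the other groups, they were 1621, 797 and 824. With a fold over 1.7 and no overlap required as well, they were 648, 286 and 362, at 18 months 727, 306 and 421, and at 30 months 552, 233 and 319. Array quality weights gave 1782 higher at 18 months, and the 6 arrays of that age alone gave 1294 calls, 569 higher, at 30 months. Leaving out each array in turn gave 1834 to 2346 calls at 6 months (855 to 1121 higher, 979 to 1225 lower), 1971 to 2161 at 18 months (909 to 995 and 1046 to 1166) and 1521 to 1888 at 30 months (682 to 879 and 839 to 1009). The change of the tissue difference with age, with 0 calls, had 2 without the filter, 3 with array weights, 11 without the 4 arrays that stood apart, and 0 to 4 without single arrays (4 without cord array 3 of 18 months, 1 without cord array 3 of 30 months). The 6 arrays of 6 months alone gave 2229 calls, and the same arrays with the replicate number as a block 2182. There 2 of the 3 oculomotor arrays correlated best with the cord array of their own number. Correlations at 6 months were 0.034 to 0.095 for same-numbered arrays and -0.12 to 0.087 for others. At 18 months they were -0.059 to 0.030 and -0.022 to 0.057, and at 30 months 0.12 to 0.50 and -0.40 to 0.29. With the block, the 6 arrays of 30 months gave 2101 calls, against 1294 without it. Whether the numbers pair the tissues is not known, and the main fit did not pair them. The other alternatives kept the counts within 1.5 times.

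Among single genes, the sign turned for Acta1 (0.715), Ckm (0.76) and Atp2a1 (0.27) with the muscle covariate. Acta1, Ckm and Atp2a1 are themselves members of the list averaged in that covariate, so that the adjustment removes part of their own difference. The sign also turned for Acta1 (0.0845) and Ckm (0.14) without cord arrays 1 and 2, and for Ttr without oculomotor array 1 (-0.11). The range for Ttr without single arrays reached 2.34. Alternatives were run for 145 genes named with a test. Counted by named probe set, 103 kept their direction and their side of the threshold under every alternative run. Signals under the floor limit the Hox genes, Calca, Slc6a5 and Isl1, whose differences are smaller than or equal to those the signals would give.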

Other observations

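Of 9 tested genes known from cerebellum, thalamus and forebrain, regions near the dissected midbrain, 5 were higher in the oculomotor nucleus and 2 lower, with a median log2 difference of 0.62. Beside Slc17a7, Calb1, Calb2 and Nrgn, the list holds Cbln1, a synapse organiser of cerebellar granule cells, with 646, 690.1 and 640 on the oculomotor arrays, against 441, 458 and 393 on the cord arrays. The 2 lower genes were Prkcd, a protein kinase C of thalamic relay cells, and Prox1, a transcription factor of the dentate gyrus and of oligodendrocytes. Prkcd had 226, 284 and 295 on the oculomotor arrays, against 543, 543 and 558 on the cord arrays, a log2 difference of -1.04 (SE 0.14, limma adjusted p = 2.07e-05). Prox1 had 497, 425 and 451 on the oculomotor arrays, against 660, 707 and 789.5 on the cord arrays, a log2 difference of -0.65 (SE 0.14, limma adjusted p = 0.00191). The part of tissue from these regions in the differences was not tested.

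Of the 9482 probe sets tested, 1458 name no single gene, and 3 of them were among the largest differences of all. They had log2 differences of -4.50 (limma adjusted p = 4.55e-08), -4.22 (limma adjusted p = 6.60e-09) and 3.78 (limma adjusted p = 3.39e-05). The first read 110.1, 206 and 151 on the oculomotor arrays, against 2476, 3377 and 4715 on the cord arrays, a larger deficit than that of Hoxd8. The second had 2 oculomotor values under the floor and the last 1 cord value, so that these 2 differences are set in part by the floor. They were singled out after their values were seen, and no gene is given for them here.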
